A study of Mus musculus with 2 samples.

Results

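Eicosanoids are signalling lipids made from arachidonic acid, and 10 mouse genes that make, inactivate or sense them were measured in the thymus of mice with a Pla2g10 transgene and of their littermates. The 10 are Ptgs1, Ptges2, Ptges3 and Cbr2 of prostaglandin synthesis or conversion, Alox5ap, Lta4h and Alox12e of the lipoxygenase and leukotriene branch, Hpgd of prostaglandin inactivation, and the receptors Ptger4 and Tbxa2r. All probes whose gene name in the scanner files equals one of these symbols were taken, which gave 14 probes among the 41174 on the array. These probes stand for 10 of the array's 27573 genes, counted after probes were named through RefSeq where possible. Hpgd has 3 probes, Ptges3 and Ptger4 have 2 each, and the other 7 genes have 1.

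Both groups were C57BL/6 mice aged 6 months: one group was Pla2g10-Tg/+, and the other consisted of littermates labelled Control. The submitters describe the transgenic mice as overexpressing Pla2g10; the sources used here name no promoter for the transgene. Thymus RNA of 4 mice per genotype went into a pool, taken here as 1 pool each, 500 ng was labelled, and the pools were hybridised together on 2 two-colour Agilent arrays. Array 1 carried the transgenic pool in the red dye (Cy5) and the control pool in the green dye (Cy3), and array 2 had the dyes exchanged. The labels do not say whether the second array holds separate pools, so the arrays were taken as a technical dye swap. Each genotype then counts as 1 sample, the SD given with a ratio is the spread between the 2 arrays, and there is no test across animals.

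Arachidonic acid is cut from membrane phospholipids by phospholipases A2, a family that includes the Pla2g10 product. Cyclooxygenases turn it into prostaglandin H2, which terminal synthases convert to prostaglandins and thromboxane, and lipoxygenases turn it into leukotrienes and hydroxy fatty acids. Most of these products act through G protein-coupled receptors, and prostaglandin E2 is inactivated by oxidation, which the Hpgd product starts. In the thymus, prostaglandin E2 is known to act on developing T cells, and the thromboxane receptor is known to be abundant on immature thymocytes.

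Detection follows the scanner software's mark for a spot well above background. This held for 34.1% of spots in the transgenic and 29% in the control channel of array 1, and for 28.5% and 33.2% on array 2, so red had the larger share both times. A probe is called measured where it was well above background in at least one genotype on both arrays, as 12235 probes for 9397 genes were. All 9 markers of T cells and thymocytes were measured in this thymus RNA, while the 3 airway and lung markers had no channel well above background. The single Pla2g10 probe had 0 of 4 channels well above background, with transgenic signals of 35.2 and 43.0 and control signals of 45.1 and 39.5. Whether the transgene contains the probed stretch is not stated in the labels, and the reading therefore checks none of them.

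Of the 10 eicosanoid genes, 8 were measured, and none of these 8 differed by 2-fold between the transgenic and the control pool. Cbr2, a carbonyl reductase, had the largest ratio in size, 1.28-fold higher in the transgenic pool. Hpgd and Alox12e were higher by 1.19-fold and 1.17-fold with nearly equal ratios in both dye orientations. Tbxa2r and Lta4h were lower by 1.22-fold and 1.16-fold, each less on array 2 than on array 1. Neither Ptgs1, the constitutive cyclooxygenase, nor Ptger4, a prostaglandin E2 receptor, was measured in one genotype on both arrays.

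Detection was uneven over the 14 probes. In 9 of them all 4 channels were well above background, against 27.1% of all 41174 probes, 1 had 3 such channels, 2 had 2 and 2 had none. The pair with 2 channels, the Ptgs1 probe and the brighter Ptger4 probe, were both well above background in red on each array and in green on neither. They share this with 2.32% of all probes, while the opposite case, green alone on both arrays, holds for 1 probe of the array. Red was the transgenic pool on array 1 and the control pool on array 2, so the detection of Ptgs1 and Ptger4 followed the dye, and their expression cannot be ranked between the genotypes here.

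**Figure D1:**
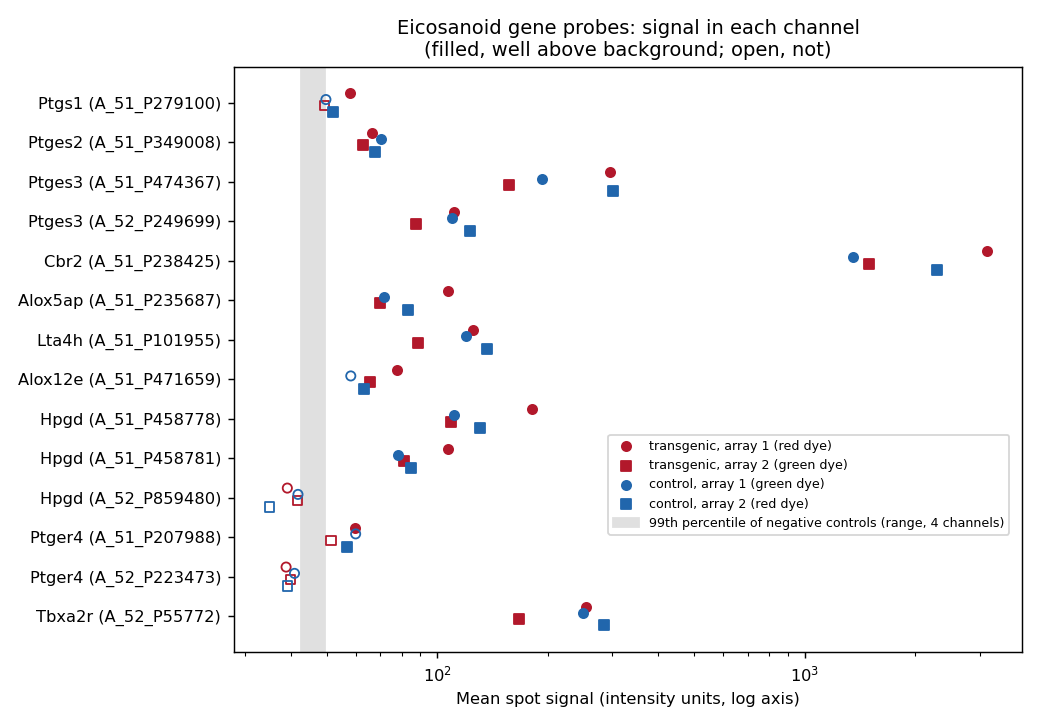
Mean spot signal (intensity units, log axis) of the 14 probes in each channel, with transgenic channels in red symbols and control channels in blue symbols, circles for array 1 and squares for array 2; open symbols are channels not well above background, and the grey band spans the 99th percentile of negative control spots over the 4 channels (42.6 to 49.6). Cbr2 lies far above the other probes, the dimmer Hpgd and Ptger4 probes lie at or below the band, and for most probes the channel in red dye is the brighter one on each array.

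Ratios are log2 of transgenic over control after normexp background correction with an offset of 50 intensity units and a loess fit within each array. Red read brighter: before loess, the background-subtracted signal of measured probes had a median log2 ratio of transgenic over control of 0.57 on array 1 and -0.74 on array 2. The dye difference was not one shift common to all probes. Centring each array on its median left 6.53% of measured genes with one sign on both arrays, against 57.4% after loess, so the loess step matters. The offset draws the ratios of dim probes towards 0, and most of these genes are dim. On this scale the 8 measured members ranged from -0.28 to 0.36 with a median of 0.05, beside a median of -0.00 over all 9397 measured genes. Their median size regardless of sign was 0.22, beside 0.08 over all measured genes. The members were chosen with earlier results of these data known, so this larger size is not a result about them. It also includes Alox12e, which passed the filter through the transgenic pool. The part of a ratio that changes sign with the dyes had a median size of 0.10 in the members and 0.06 over all genes.

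A ratio of one sign in both dye orientations was found for 6 of the 8, with 4 higher (Cbr2, Hpgd, Alox12e and Alox5ap) and 2 lower (Lta4h and Tbxa2r) in the transgenic pool. Since 57.4% of all measured genes have one sign, 8 genes are too few to read this count as a result about them, and Alox12e entered it through its detection in the transgenic pool. A ratio of at least 0.25 in size on both arrays was reached by 1 member, Cbr2, on the higher side, where 1.68% of measured genes reached it, and by 0 on the lower side, where 1.31% did. The 2-fold rule, a mean of at least 1 with at least 0.5 on each array, was met by 0 members and by 0.0319% of measured genes, which is 3 genes.

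**Figure D2:**
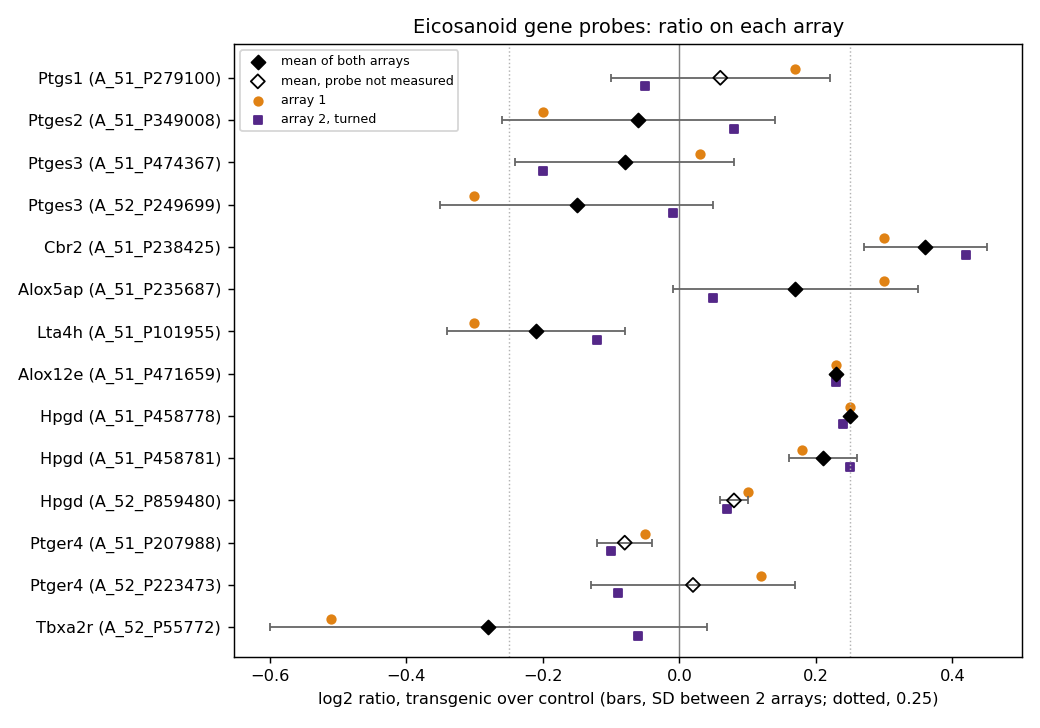
Log2 ratio of transgenic over control for each probe, with array 1 as circles, array 2 (turned to the same direction) as squares, and the mean as a diamond with the SD between the 2 arrays; open diamonds are probes not measured, and dotted lines mark 0.25 in either direction. Cbr2 is the probe beyond the line on both arrays, Hpgd and Alox12e stop at it, and the Tbxa2r arrays lie farthest apart, at -0.51 and -0.06.

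**Figure D3:**
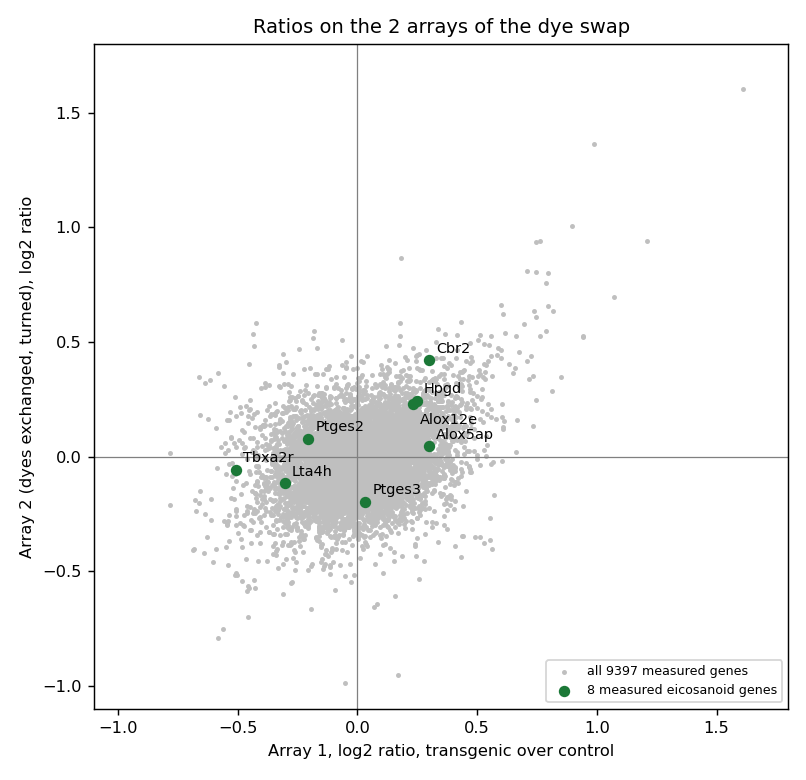
Log2 ratio of transgenic over control on array 1 (horizontal) and on array 2 (vertical) for all 9397 measured genes (grey) and the 8 measured eicosanoid genes (green, labelled). Cbr2, Hpgd and Alox12e lie at the upper right near the diagonal, Lta4h and Tbxa2r lie at the lower left, and Ptges2 and Ptges3 lie where the arrays disagree in sign.

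The sequences upstream of Cbr2, Hpgd and Alox12e are shown because these are the members that were higher by similar amounts in both dye orientations. Each is the 250 bases before the annotated start in RefSeq on GRCm38.p6, read 5′ to 3′ on the gene's strand. The windows are chr11:120732022-120732271 on the minus strand for Cbr2, chr8:56294302-56294551 on the plus strand for Hpgd and chr11:70322531-70322780 on the minus strand for Alox12e. Capitals mark a GC box (GGGCGG) or a CCAAT box (CCAAT) on either strand.
Cbr2: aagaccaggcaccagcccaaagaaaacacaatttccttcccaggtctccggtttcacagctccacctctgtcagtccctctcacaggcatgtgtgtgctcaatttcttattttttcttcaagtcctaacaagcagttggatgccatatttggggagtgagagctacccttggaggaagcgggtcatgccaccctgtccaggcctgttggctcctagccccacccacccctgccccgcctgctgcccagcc
Hpgd: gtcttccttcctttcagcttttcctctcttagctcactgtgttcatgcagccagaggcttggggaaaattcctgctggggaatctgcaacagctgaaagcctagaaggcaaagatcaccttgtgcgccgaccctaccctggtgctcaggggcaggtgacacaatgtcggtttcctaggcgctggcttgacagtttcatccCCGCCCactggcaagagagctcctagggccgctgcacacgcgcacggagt
Alox12e: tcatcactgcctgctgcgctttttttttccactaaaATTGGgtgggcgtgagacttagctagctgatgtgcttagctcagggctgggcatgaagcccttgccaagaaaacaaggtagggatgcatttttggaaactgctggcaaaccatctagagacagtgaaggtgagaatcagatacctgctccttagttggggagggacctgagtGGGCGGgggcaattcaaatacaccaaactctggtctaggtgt
The Cbr2 window holds neither motif, the Hpgd window holds 1 GC box that ends 45 bases before the start, and the Alox12e window holds 1 GC box, ending 37 bases before the start, and 1 CCAAT box, ending 210 bases before it. Windows were found for 9 of the 10 members, with 2 for Tbxa2r; Alox5ap had none. A GC box occurred in the windows of 4 members and a CCAAT box in those of 4, while 32.7% and 33.8% of all 32851 such windows hold them. A TATA box spelled TATAAA, searched on both strands, was in the windows of 0 members and in 12.4% of all windows. The 3 motifs do not overlap one another in the printed windows, and a match of letters is a description, not a shown binding site.

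Ptgs1 makes prostaglandin H2 and is the cyclooxygenase that many tissues express without a stimulus. Its probe (A_51_P279100, NM_008969, mm8 chr2:36074133-36074192) read 57.8 and 49.4 in the transgenic channels and 49.8 and 52.2 in the control channels, giving array 1 first here and for every gene. The local background under these spots was 33 to 34. The genotypes overlap, and the higher reading of each array was the red one. Its ratios of 0.17 and -0.05 have opposite signs, and their mean was 0.06 ± 0.16 (SD, n = 2 arrays).

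Ptges2 and Ptges3 encode enzymes that can convert prostaglandin H2 to prostaglandin E2; the Ptges3 protein is also the p23 co-chaperone of Hsp90. The Ptges2 probe (A_51_P349008, NM_133783, mm8 chr2:32224457-32224516) read 66.3 and 62.7 in the transgenic pool and 70.4 and 67.7 in the control pool. Both transgenic readings were below both control readings, yet after loess the ratios were -0.20 and 0.08, with a mean of -0.06 ± 0.20. The brighter Ptges3 probe (A_51_P474367, NM_019766, mm8 chr10:127479590-127479649) read 295 and 157 in the transgenic and 193 and 302 in the control channels, high in red and low in green. Its ratios were 0.03 and -0.20, a mean of -0.08 ± 0.16. The second Ptges3 probe (A_52_P249699, mm8 chr10:127479048-127479107), 483 bases away, read 111 and 87.8 against 110 and 123 and gave -0.30 and -0.01, a mean of -0.15 ± 0.20. Neither gene therefore had a difference larger than the spread between arrays.

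Cbr2 encodes a carbonyl reductase of mitochondria, best known from lung and able to reduce the keto group of prostaglandins. Its probe (A_51_P238425, NM_007621, mm8 chr11:120545601-120545660, minus strand) was the brightest of the 14, with 3131 and 1502 in the transgenic and 1354 and 2301 in the control channels. The red channel was the higher on each array, but by more where it held the transgenic pool: above local background, the transgenic signal was 2.35-fold higher on array 1 and 1.54-fold lower on array 2. Loess gave ratios of 0.30 and 0.42, a mean of 0.36 ± 0.09, larger than the spread between arrays. At this brightness the offset hardly counts, and with an offset of 0 the mean was 0.38 ± 0.02. The loess step does count for the array values: with each array only centred on its median they were 1.13 and -0.52, although their mean stayed at 0.31.

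Alox5ap, the protein that presents arachidonic acid to the leukotriene-forming lipoxygenase, had 107 and 70.1 in the transgenic and 71.7 and 83.3 in the control channels (A_51_P235687, NM_009663, mm8 chr5:149596619-149596678). The highest and the lowest of the 4 readings were both transgenic. Its ratios of 0.30 and 0.05 gave a mean of 0.17 ± 0.18, within the spread between arrays. The lipoxygenase it serves, Alox5, had no channel well above background.

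Lta4h, the hydrolase that makes leukotriene B4, read 125 and 88.6 in the transgenic and 120 and 137 in the control channels (A_51_P101955, NM_008517). The mm8 span given for this probe, chr10:92904358-92904755, covers 398 bases, more than the 60 of the other probes. The low reading is the transgenic one of array 2, in green. Both ratios were below 0, at -0.30 and -0.12, and the mean was -0.21 ± 0.13, larger in size than the spread between arrays, or -0.35 with an offset of 0.

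Alox12e is an epidermal type of arachidonate lipoxygenase. Its probe (A_51_P471659, NM_145684, mm8 chr11:70131850-70131909, minus strand) read 77.8 and 65.6 in the transgenic pool and 58.2 and 63.2 in the control pool. Both transgenic readings exceeded both control readings, and the lowest, the control channel of array 1, was not well above background, so the control was measured on 1 of the 2 arrays and the probe passed the filter through the transgenic pool, where it is high. The ratio was 0.23 on each array, a mean of 0.23 ± 0.00. The arrays differed by less than the rounding, though 2 arrays give only a rough estimate of the spread. This close to background the offset sets the size: with an offset of 0 both arrays gave 0.63, a 1.55-fold difference.

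Hpgd encodes hydroxyprostaglandin dehydrogenase, the enzyme that starts the inactivation of prostaglandins. The brightest of its probes (A_51_P458778, NM_008278, mm8 chr8:59212744-59212803) read 181 and 109 in the transgenic and 111 and 131 in the control channels. The transgenic pool was clearly the higher where it carried red and the lower, by less, where it carried green. The ratios were 0.25 and 0.24, a mean of 0.25 ± 0.00, and with an offset of 0 they were 0.35 and 0.42. The second probe (A_51_P458781, mm8 chr8:59212385-59212444), 300 bases away, read 107 and 81.2 against 78.2 and 85.0 and gave 0.18 and 0.25, a mean of 0.21 ± 0.05. Both measured probes thus gave one direction and a like size. The third (A_52_P859480, AK047964, mm8 chr8:59206249-59206308), 6.44 kb away, read 35.0 to 41.8 and was well above background in no channel.

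Of the receptors, Ptger4 couples prostaglandin E2 to cyclic AMP. Its brighter probe (A_51_P207988, NM_008965, mm8 chr15:5181634-5181693, minus strand) read 59.8 and 51.4 in the transgenic and 60.0 and 57.0 in the control channels, and its ratios were -0.05 and -0.10. The other (A_52_P223473, AK051137, mm8 chr15:5153890-5153949), 27.7 kb away, read 38.8 to 40.9 and was not well above background in any channel.

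Tbxa2r, the thromboxane A2 receptor, was the member with the lowest ratio and the least agreement between arrays. Its probe (A_52_P55772, NM_009325, mm8 chr10:80737904-80737963) read 254 and 167 in the transgenic and 249 and 284 in the control channels. On array 1 the genotypes read alike although the transgenic pool carried the brighter dye, and on array 2 the control pool, then in red, was the higher. The ratios were -0.51 and -0.06, a mean of -0.28 ± 0.32, so the difference was smaller than the spread between arrays. With an offset of 0 the mean was -0.35.

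The pathway was also read through a list of 49 genes that includes the 10, of which 18 were measured and 26 had no channel well above background. On the whole array, 9397 of 27573 genes were measured, and 26580 of 41174 probes had no channel well above background. The list's detection counts are therefore not read as a result about the pathway. Prostanoid synthesis had 7 of 14 genes measured, with a median of -0.02, lipoxygenases and leukotriene synthesis 4 of 15, with a median of 0.20, inactivation and transport 6 of 7, with a median of 0.10, and receptors 1 of 13, Tbxa2r. Alox12e is among the 4 and Ephx2 among the 6. Both passed the filter through the transgenic pool, where they are high, so the medians of 0.20 and 0.10 are not results. The inducible cyclooxygenase Ptgs2, the prostaglandin E, D and I2 synthase genes Ptges, Ptgds, Hpgds and Ptgis, the thromboxane synthase gene Tbxas1 and the leukotriene C4 synthase gene Ltc4s were well above background in no channel. Alox12b, Mgst3 and Ptgdr2 were seen in red alone, like Ptgs1 and Ptger4.

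Among the 39 further genes, 10 were measured, between -0.10 and 0.32 with a median of 0.06. On both arrays 4 were higher, Ephx2 among them, and 2 lower, while 4 differed in sign between the arrays. Since 57.4% of all measured genes had one sign, 10 genes are too few to read these counts as a result about them. Mgst2, a microsomal glutathione transferase that can form leukotriene C4, had 1295 and 627 in the transgenic and 607 and 941 in the control channels. Its ratios of 0.31 and 0.33, a mean of 0.32 ± 0.02, made it the 1 further gene past 0.25 on both arrays. Of all measured genes, 1.68% were at least 0.25 higher on both. Like Cbr2, Mgst2 is bright and higher in the transgenic pool. The soluble epoxide hydrolase Ephx2 had 0.20 ± 0.06, or 0.61 with an offset of 0; it passed the filter through the transgenic pool, with the control well above background on 1 array. The prostaglandin F synthase Prxl2b reached 0.17 ± 0.07 and the prostaglandin transporter Slco2a1 0.14 ± 0.07. The cytosolic carbonyl reductase genes had ratios of -0.10 ± 0.08 (Cbr1) and -0.02 ± 0.10 (Cbr3), beside 0.36 for Cbr2. The remaining values were 0.05 ± 0.20 for the aldose reductase Akr1b3, 0.06 ± 0.28 and -0.09 ± 0.12 for the prostaglandin reductases Ptgr1 and Ptgr2, and 0.04 ± 0.18 for the exporter Abcc4.

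**Figure D4:**
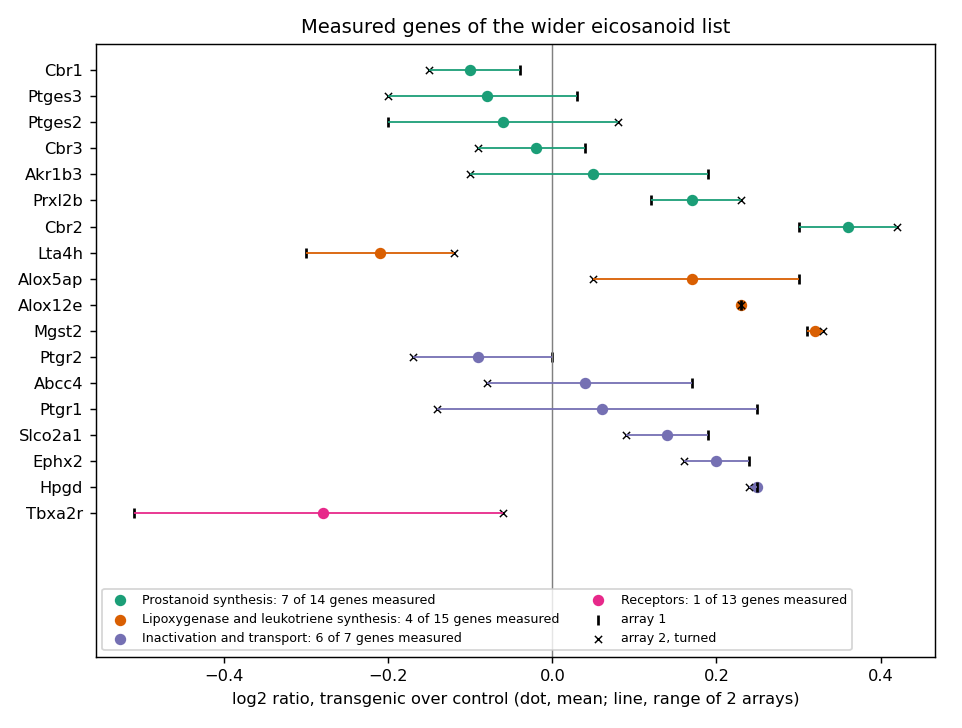
Log2 ratio of transgenic over control for the 18 measured genes of the wider eicosanoid list, coloured by role, with the mean as a dot, array 1 as a bar, array 2 (turned) as a cross and a line between the arrays. Cbr2 and Mgst2 are the genes with both arrays at 0.25 or more, and Tbxa2r, the single measured receptor, has the longest line.

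The thymus pools differed in markers of several cell types, and in bulk RNA fewer cells of a type and less RNA per cell cannot be told apart. Of 7 adipocyte markers, 2 were measured in both genotypes, Fabp4 at 0.78 ± 0.04 and Lpl at 0.38 ± 0.03, and both were at least 0.25 higher on each array. Cfd, Car3 and Cidec were well above background in the transgenic pool alone, so they passed the filter through the pool where they are high and add nothing to that count. The signals of Fabp4 were 1573 and 762 in the transgenic and 541 and 822 in the control channels. Those of Lpl were 124 and 87.9 against 73.5 and 87.0. Plin1 was well above background in no channel and Adipoq in 1, a transgenic one.

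Of the 6 genes listed for keratinised epithelium, 3 were measured, and all 3 were higher on both arrays, with a median of 0.33. These were Krt5 at 0.68 ± 0.10, Krt14 at 0.33 ± 0.14 and Krt10 at 0.16 ± 0.13. Krt5 alone reached 0.25 on both arrays. Krt1, Lor and Ivl had no channel well above background, so the measured part of the list is these keratins alone and does not identify keratinised epithelium. Their summed net signals (above local background, before loess) were 561 and 295 in the transgenic and 215 and 340 in the control channels. Neutrophil markers were measured in 5 of 6 genes, with a median of 0.34 and summed net signals of 1738 and 777 against 677 and 954. They were higher on both arrays in 4 and at least 0.25 higher on both in 2. Ngp had no channel well above background. Fibroblast markers were measured in 5 of 6 and higher on both arrays in 4 (median 0.12), with 1062 and 513 against 500 and 743. Of these, Dcn alone reached 0.25 on both arrays. In each of these lists the red channel had the higher sum on each array. Over all measured genes, 57.4% had one sign on both arrays and 1.68% were at least 0.25 higher on both. Lists this short are too small to read such counts as results. Most measured genes of these lists were higher in the same pool as Cbr2, Hpgd and Alox12e. Their part in those ratios was not tested.

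Most T cell and thymocyte markers went the other way, as Lta4h and Tbxa2r did. Of 9 measured, 7 were lower on both arrays and 4 at least 0.25 lower on both, and the median was -0.30. Over all measured genes, 1.31% were at least 0.25 lower on both. The lowest was Cd8a at -0.51 ± 0.00, and Rag1 had -0.31 ± 0.04. Cd3e at -0.01 ± 0.10 and the brighter measured Cd4 probe at 0.02 ± 0.00 were not lower on both arrays. That Cd4 probe was dim, reading 60.4 to 71.3, and the other measured Cd4 probe had a mean of -0.12. The summed net signal of all 9 markers was 33876 and 13681 in the transgenic and 20453 and 39876 in the control channels. These sums are before loess, and the red channel had the higher one on each array. Smooth muscle markers, 2 of 4 measured, were mixed: the brighter measured Acta2 probe had -0.44 ± 0.27, the other measured Acta2 probe 0.14, and Tagln -0.05 ± 0.03. The part of the T cell markers in the Lta4h and Tbxa2r ratios was not tested. Markers of cortical thymic epithelium, 4 of 5 measured, had a median of 0.08, with 2 higher and 0 lower on both arrays. Macrophage markers, 8 of 9 measured, had a median of -0.01, and none of the 7 mast cell and basophil or the 5 platelet markers was measured.

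The direction of each measured member's mean held under the 7 other settings that used both arrays, but its size did not. These are not 7 separate checks: the software's log ratios and the deposited series table gave the same member values. Leaving out the filter on dim probes repeated the main values, and averaging probes could move only Ptges3 and Hpgd. Alox12e ranged from 0.22 to 0.77, Alox5ap from 0.17 to 0.43, Hpgd from 0.22 to 0.40 and Lta4h from -0.37 to -0.21, whereas Cbr2 stayed between 0.31 and 0.38 and Tbxa2r between -0.35 and -0.28. With an offset of 0, Alox12e and Hpgd joined Cbr2 at 0.25 on both arrays, so which members pass this size depends on the treatment of background. With median centring in place of loess no member passed, and most genes then had opposite signs on the 2 arrays: 6.53% of measured genes had one sign, against 57.4% after loess.

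**Figure D5:**
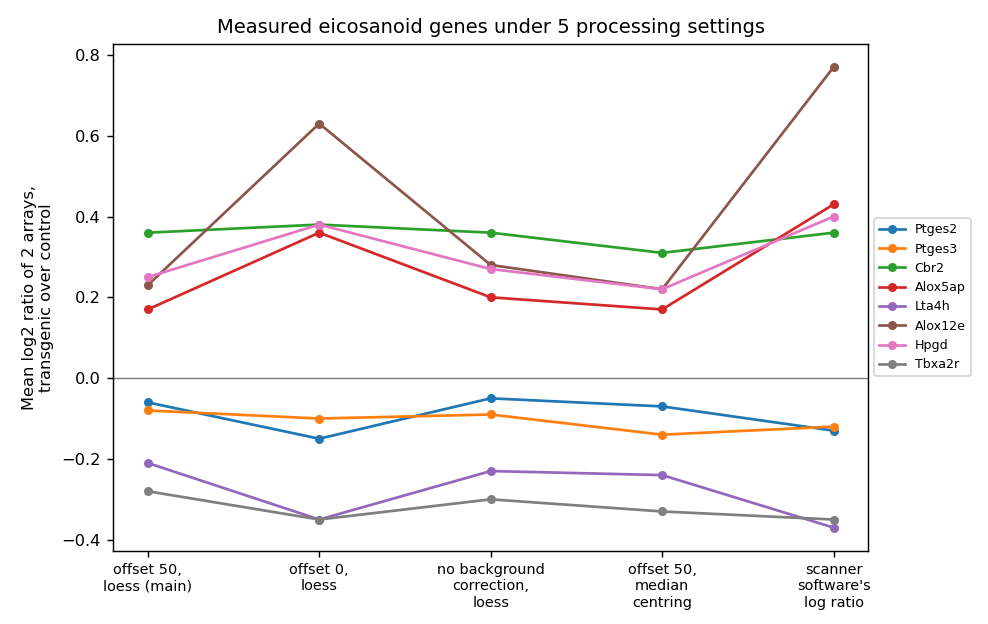
Mean log2 ratio of transgenic over control (2 arrays) of the 8 measured members under 5 processing settings, one line per gene. No line crosses 0, Cbr2 is nearly level, and Alox12e, the dimmest of the members that were higher, moves most, from 0.23 to 0.77.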

How the data were processed

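The 2 arrays were scanned by the authors, and per the file headers the spots were read with Feature Extraction 9.5.1.1. The deposited mean and local background signals are intensities on a linear scale, without correction, and the deposited well-above-background and outlier marks are the software's. The deposited log10 ratios (LogRatio and the series table) are red over green after the software's dye normalization, per the file headers; they were used as alternatives, converted to log2.

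Mean signals were background-corrected (normexp, offset 50) and normalized by loess within arrays with limma 3.58.1 in R 4.3.3; control and outlier spots had weight 0 in the loess, and 46 and 37 outlier spots were left out. Array 2 was multiplied by -1. The brightest measured probe stood for a gene. The steps were tested on simulated data with planted differences of 2-fold or more. No measured member differed that much, so the simulation does not cover ratios of this size. The spread between arrays covers technical error only, and the number of arrays limits the precision. Probe names came from RefSeq (GRCm38.p6): 23374 probes by accession, 6733 by symbol, 2919 by synonym, and 8148 kept the array's name. Probe positions are on mm8; exon or UTR is not given, for want of an mm8 annotation.

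The members, lists and size rules were chosen with earlier results of these data known. Named genes were the 10 members, the measured or partly detected genes of the pathway list, and defining markers; Pla2g10 and undetected genes were added after their values were seen. The alternatives were the background correction, offset, centring, software ratios, probe averaging, no filter, single arrays and limma's moderated test.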

Additional observations from a re-analysis of the deposited data

How the results depend on the processing

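The median of the members (0.05) was 0.13 at offset 0, 0.12 from the software's log ratios or the deposited series table, -0.00 without a filter on dim probes, and 0.06 to 0.13 with single arrays. Members at least 0.25 on both arrays (1, Cbr2) numbered 3 with an offset of 0, without background correction, and with the software's ratios or the series table, in each case Cbr2, Alox12e and Hpgd. They numbered 0 with median centring; with single arrays the count was 1 on array 2 (Cbr2) and 4 on array 1 (Cbr2 and Alox5ap higher, Lta4h and Tbxa2r lower). Over all measured genes this count (281) was 937 with an offset of 0, 18 with median centring, 1131 with the software's ratios or the series table, and 887 to 1538 with single arrays. Genes at least 2-fold different (3) numbered 27 with an offset of 0, 1 with median centring and 38 with the software's ratios or the series table. limma's test, run as if each array were a sample and so blind to the spread between animals, called 151 at an adjusted p under 0.05; Cbr2 had the lowest adjusted p of the members, 0.0598. With single arrays Ptges2 and Ptges3 each changed sign once. No paired analysis was possible because the arrays form a single group of ratios, each already of transgenic over control. Dim signal limits Ptgs1, Ptger4 and Alox12e most.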
